A study of Mus musculus with 6 samples.

Results

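The miR-30 family was read by 11 of the 750 microRNA (miRNA) assays on a TaqMan OpenArray rodent panel, in prefrontal cortex of 3 BTBR and 3 C57BL/6J mice. The members were the assays whose name, apart from species prefix, strand mark and copy number, is miR-30a, miR-30b, miR-30c, miR-30d or miR-30e, on either strand. The 5 assays of the 5p strand were all in pool A of the panel and the 6 assays of the 3p strand all in pool B, the pool being the letter at the end of an assay's identifier. BTBR mice carry the genotype label BTBR T+ Itpr3tf/J and are a widely used inbred model of autism-like behaviour. Their samples also carry the strain background label C57BL/6J, which goes against the genotype label, and they were grouped here by title and genotype. The other mice were wild-type C57BL/6J. All 6 mice were males aged 5 months that had received no drug, and each gave 1 sample of whole prefrontal cortex. The strains differ across the genome, so no single locus separates the groups.

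MiRNAs are short RNAs that guide Argonaute proteins to messenger RNAs through the seed, bases 2 to 8 of the mature strand, and lower the output of those messages. The hairpins of the miR-30 family come in linked pairs, and each hairpin can release a 5p and a 3p strand, of which the 5p strand is usually the main one in brain. The family is widely expressed in neurons and glia, and miR-30a-5p is known to repress Bdnf, a neuronal growth factor, in rodent and human cells.

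The mature sequences are shown because they group the assays: the 5p strands printed share 1 seed, and the 3p strands carry others. RefSeq (build GRCm38.p6) held the mouse mature sequence for 7 of the 11 assays. They are printed 5′ to 3′ with the seed in capitals, beside miR-384-5p, the only miRNA outside the family in that table with the 5p seed. That seed was found in 4 of 1679 mature names.
miR-30a-5p: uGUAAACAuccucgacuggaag
miR-30c-5p: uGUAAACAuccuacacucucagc
miR-30e-5p: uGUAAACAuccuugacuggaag
miR-384-5p: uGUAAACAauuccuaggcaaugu
miR-30a-3p: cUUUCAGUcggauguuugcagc
miR-30e-3p: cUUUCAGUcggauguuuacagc
miR-30c-1-3p: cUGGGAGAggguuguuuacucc
miR-30c-2-3p: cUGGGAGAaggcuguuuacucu

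From miR-30a-5p to miR-30e-5p the sequence differs by the single substitution C13U, and from miR-30a-3p to miR-30e-3p by G18A, with positions counted from 1 at the 5′ end. The strand of miR-30c matches miR-30a-5p over its first 12 bases and miR-384-5p matches it over 8. How far an assay for 1 paralog also reads its near-identical relative was not tested. In RefSeq GRCm38.p6, Mir30a lies at chr1:23272269-23272339 (plus strand) next to Mir30c-2 at chr1:23291701-23291784 (plus strand). On chromosome 4, Mir30c-1 (chr4:120769534-120769622, minus strand) and Mir30e (chr4:120772606-120772697, minus strand) lie within Nfyc, a gene for a transcription factor subunit that runs in the same direction. Mir30b and Mir30d are neighbours on chromosome 15. Because both miR-30c hairpins release the same 5p strand, the miR-30c assay reads their sum.

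Levels were read as cycle thresholds: the number of PCR cycles an assay needs before its fluorescence passes a fixed limit, so that a later threshold stands for less RNA. Each assay was run once per mouse, and a value of 40 was read as undetermined, which gives no level. Between 352 and 409 assays gave a reading in BTBR mice, against 296 to 306 in C57BL/6J mice. For the 5 endogenous small RNA controls, 78 to 80 of their spots were read in BTBR mice, at a mean of 16.9 to 17.9 cycles, against 59 to 63 spots in C57BL/6J mice, at 18.1 to 19.0 cycles. BTBR replicate 3 stood apart from the other BTBR mice. Over the 237 assays read in every mouse at 10 cycles or later, its differences from BTBR replicates 1 and 2 had SDs of 1.73 and 1.80 cycles, against 0.941 between those 2 mice and 1.41 to 1.90 among C57BL/6J mice. Neuronal markers were present: 9 to 11 of 12 neuron assays were read in BTBR mice, against 9 in each C57BL/6J mouse. Markers of some other cell types were read more often in BTBR mice, as was the panel as a whole. For choroid plexus and ciliated cells 6 to 10 of 13 assays were read, against 2 or 3 in C57BL/6J mice. For microglial and blood-derived cells it was 5 to 7 of 8 against 2 to 5, for astrocytes 7 or 8 of 11 against 5, and for red blood cells 2 of 3 against 1. Counts also met between strains for oligodendrocytes (5 or 6 of 6 against 4 or 5) and endothelium (2 of 2 against 1 or 2), as for microglial cells. Of all 55 marker assays, 6 were read in every BTBR mouse and no C57BL/6J mouse, among them hsa-miR-486 (red blood cells) and mmu-miR-34b-3p (ciliated cells), and 8 were read in no mouse, among them HSA-MIR-144 (red blood cells) and mmu-miR-211 (choroid plexus). Over all 750 assays, 11.2% were read in at least 2 BTBR mice and no C57BL/6J mouse, and 1.33% the reverse way. Readings under 10 cycles, such as those of mmu-miR-155, are counted here as read. Some markers went the other way: the neuronal hsa-miR-124# was read in every C57BL/6J mouse and no BTBR mouse. Both hsa-miR-146a and hsa-miR-338 came earlier in every C57BL/6J mouse than in any BTBR mouse. The other strand of miR-124 did not follow hsa-miR-124#: mmu-miR-124a was read in all 6 mice and came earlier in BTBR. It stood at 20.78, 19.79 and 23.29 cycles in BTBR replicates 1, 2 and 3, against 31.40, 24.83 and 24.44 cycles in C57BL/6J replicates 1, 2 and 3. The part of the markers in the results was not tested. In tissue like this, fewer cells of a type and less miRNA per cell cannot be told apart.

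Of the 11 miR-30 assays, 9, 9 and 7 gave a reading in BTBR replicates 1, 2 and 3, against 6, 8 and 7 in C57BL/6J replicates 1, 2 and 3. All 5 assays of the 5p strand and 1 of the 6 assays of the 3p strand were read in every mouse. The 5 others, all of the 3p strand, lacked readings in at least 1 mouse and are not in the authors' normalized table. Of these, hsa-miR-30e-3p had enough readings to be ranked for that table but was left out by its limit on late values. Thresholds of different assays include their own PCR efficiencies, so a level was never set against that of another assay.

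**Figure D1:**
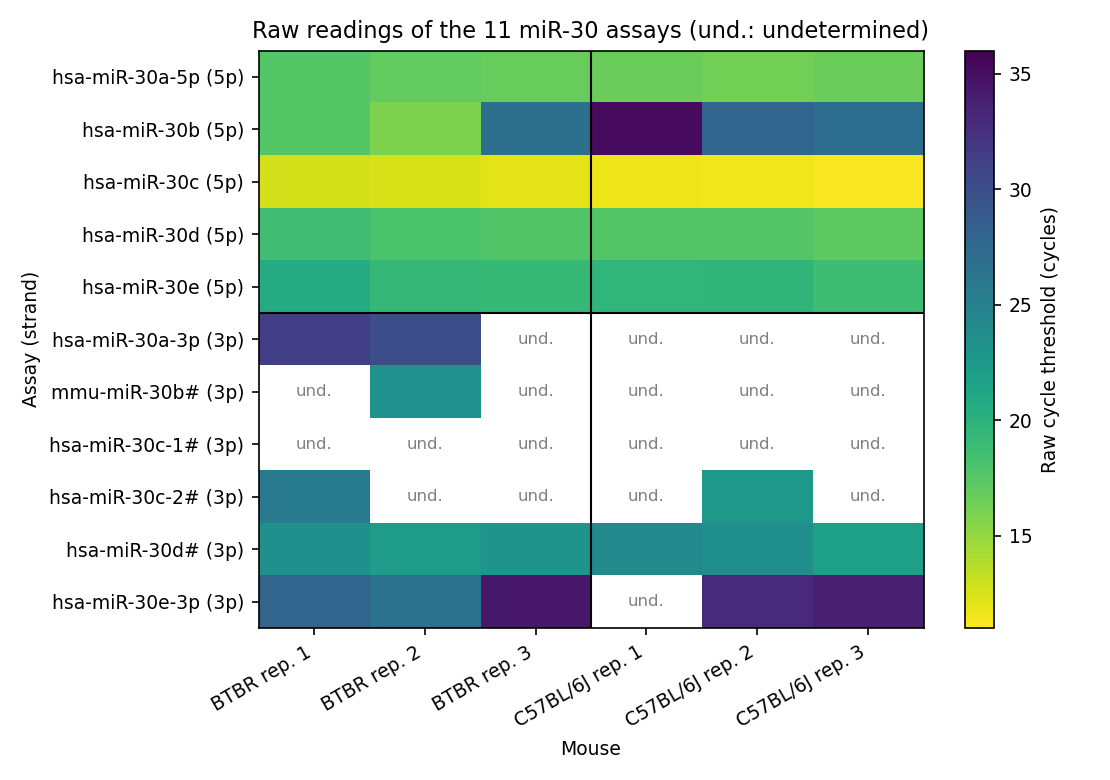
Raw cycle thresholds (colour, in cycles) of the 11 miR-30 assays (rows, 5p strands above and 3p strands below) in each mouse (columns, BTBR left of C57BL/6J), with undetermined readings marked. The 5p assays were read in all 6 mice, and the row of hsa-miR-30b changes colour between BTBR replicates 1 and 2 and the other 4 mice.

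The strain comparison asked whether cortical miRNA levels of BTBR mice depart from those of C57BL/6J mice. In the raw readings, 3 of the 5 assays of the 5p strand (miR-30a-5p, miR-30c and miR-30d) came later in every BTBR mouse than in any C57BL/6J mouse, by means of 0.557 to 0.929 cycles. Over all 237 assays read in every mouse, 18.1% were later in BTBR without overlap and 14.3% earlier. In the opposite direction, hsa-miR-30b averaged 20.055 ± 5.86 cycles in BTBR and 30.07 ± 4.55 cycles in C57BL/6J (SD, n = 3 each), a difference that rests on 2 of the 3 BTBR mice. The median raw difference of the 237 assays was 0.027 cycles.

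The assay hsa-miR-30c, whose strand is known in mouse liver to target a lipid transfer protein, was read at 12.59, 12.48 and 12.03 cycles in BTBR replicates 1, 2 and 3, against 11.63, 11.54 and 11.15 cycles in C57BL/6J replicates 1, 2 and 3. The raw means were 12.37 ± 0.294 cycles in BTBR and 11.44 ± 0.257 cycles in C57BL/6J (SD, n = 3 each), and the strains did not overlap. In the authors' normalized table the same assay stood at 12.15, 12.39 and 11.89 cycles in BTBR, against 12.15, 11.89 and 11.01 cycles in C57BL/6J, and the strains overlapped. That table gives each assay a value set by its rank within the mouse. The rank of miR-30c among 340 ranked assays was 3, 4 and 2 in BTBR mice and 3, 2 and 1 in C57BL/6J mice, counted from the earliest.

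For hsa-miR-30d, whose gene neighbours that of miR-30b, the raw readings were 18.62, 18.13 and 17.83 cycles in BTBR replicates 1, 2 and 3, against 17.73, 17.69 and 17.24 cycles in C57BL/6J replicates 1, 2 and 3. The strains did not overlap, but the earliest BTBR mouse was close to the latest C57BL/6J mouse, and the SDs were 0.40 cycles in BTBR and 0.271 cycles in C57BL/6J. The normalized values lay farther apart, at 18.68 ± 0.35 cycles in BTBR and 17.24 ± 0.425 cycles in C57BL/6J (SD, n = 3 each).

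The Bdnf-targeting strand, hsa-miR-30a-5p, was read at 17.63, 16.96 and 16.78 cycles in BTBR replicates 1, 2 and 3, against 16.71, 16.28 and 16.71 cycles in C57BL/6J replicates 1, 2 and 3. The strains did not overlap; BTBR replicate 1 was the latest mouse, and BTBR replicate 3 was close to C57BL/6J replicates 1 and 3. Its near-identical relative hsa-miR-30e was read at 20.58, 19.30 and 19.29 cycles in BTBR mice, against 19.51, 19.64 and 18.73 cycles in C57BL/6J mice. Here the strains overlapped in the raw table but not in the normalized one, where the means were 20.22 ± 0.54 cycles in BTBR and 18.85 ± 0.402 cycles in C57BL/6J (SD, n = 3 each). Of the 5 miR-30 assays with 6 normalized values, 4 (hsa-miR-30d#, hsa-miR-30e, hsa-miR-30d and hsa-miR-30a-5p) were later in BTBR without overlap and 0 were earlier, against 57.7% and 1.59% of the 189 such assays.

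The assay hsa-miR-30b behaved unlike its paralogs. It was read at 17.59 and 15.83 cycles in BTBR replicates 1 and 2 but at 26.75 cycles in BTBR replicate 3, against 35.30, 27.89 and 27.01 cycles in C57BL/6J replicates 1, 2 and 3. Thus BTBR replicate 3 was near C57BL/6J replicates 2 and 3, and the latest reading, of C57BL/6J replicate 1, is undetermined in the normalized table. In that table BTBR replicates 1 and 2 stood at 17.41 and 16.19 cycles. There BTBR replicate 3 (28.25 cycles) was later than C57BL/6J replicates 2 and 3 (26.95 and 25.91 cycles). Of the 237 assays, 2 (0.844%) were at least 5 cycles earlier in both BTBR replicates 1 and 2 than in each of the 4 other mice. They were hsa-miR-30b and hsa-let-7e, the latter named after its values were seen. This split is that of hsa-miR-30b itself, which therefore meets it by construction. Assays undetermined in any mouse could not count, so the share does not measure how rare the split is. The marker assays split the mice in several ways. Of all 55, 5 were read in BTBR replicates 1 and 2 alone: the neuronal hsa-miR-9 (16.76 and 13.90 cycles), the epithelial hsa-miR-200a (17.45 and 14.41 cycles), hsa-miR-34c, mmu-miR-214 and HSA-MIR-338-5P. Another 6 were read in all 3 BTBR mice and no C57BL/6J mouse, and 4 in BTBR replicates 2 and 3 alone. Readings in at least 2 BTBR and no C57BL/6J mice, which cover these 3 patterns, occurred in 11.2% of the 750 assays. Neuronal assays were mixed: hsa-miR-9#, the other strand of miR-9, was read at 13.49 to 14.09 cycles in all 6 mice. In contrast, hsa-miR-127 came at 17.57 and 17.88 cycles in BTBR replicates 1 and 2 and at 20.04 cycles or later elsewhere. The part of the marker assays in the miR-30b difference was not tested.

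**Figure D2:**
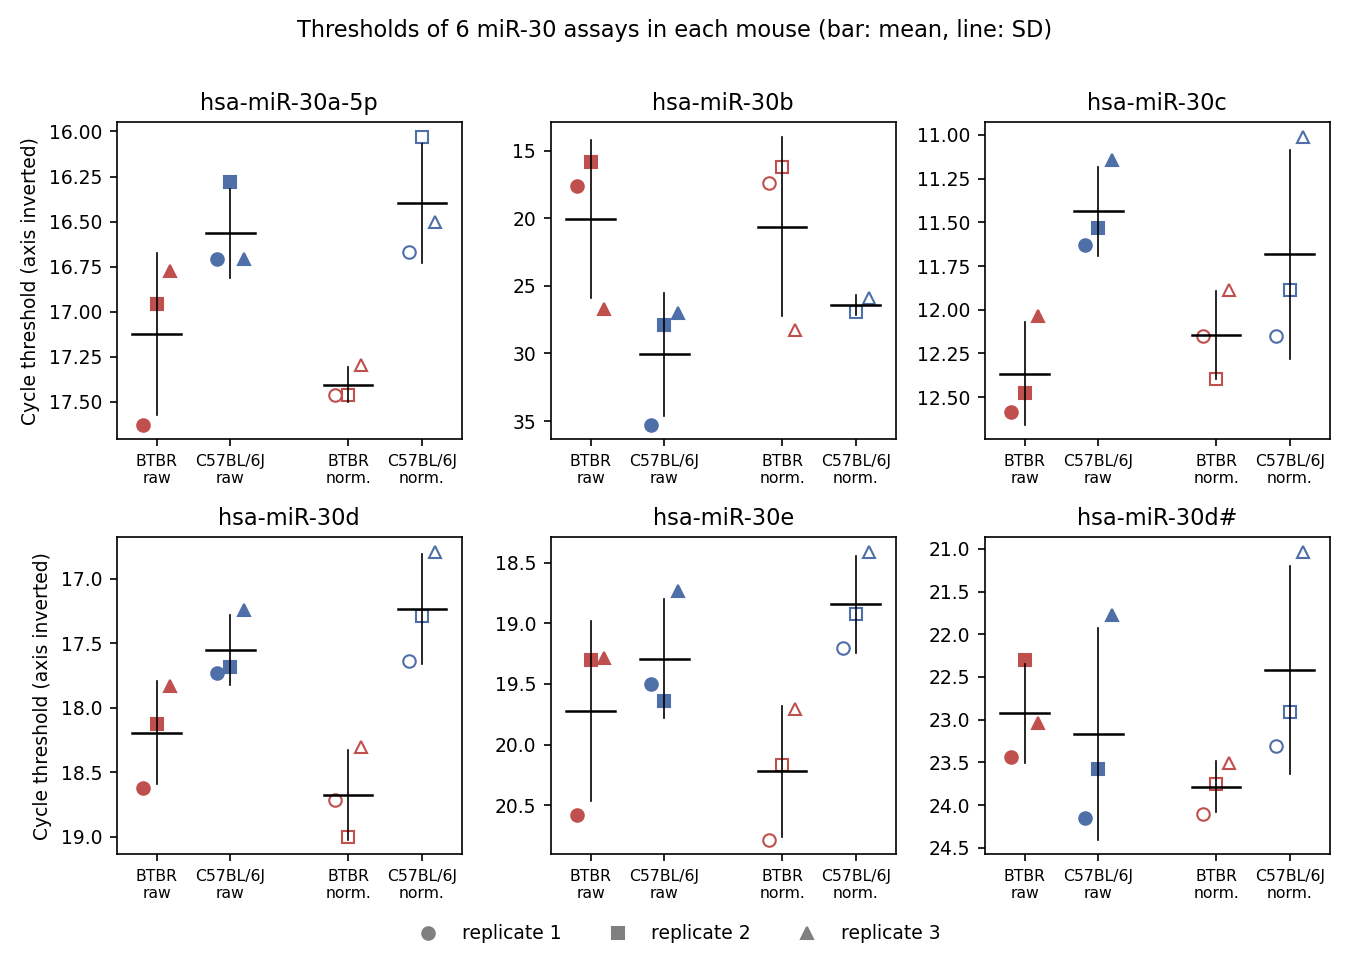
Cycle thresholds (inverted axis, in cycles) of the 6 miR-30 assays in the normalized table, for each mouse, with raw values filled and the authors' normalized values open, BTBR left of C57BL/6J (bar: mean; line: SD; n = 3 each, but n = 2 for normalized hsa-miR-30b in C57BL/6J). For hsa-miR-30b, BTBR replicates 1 and 2 (17.59 and 15.83 cycles raw) sit far from BTBR replicate 3 (26.75 cycles), which is near C57BL/6J replicates 2 and 3.

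On the authors' normalized values, 3 of the 6 miR-30 assays tested were lower in BTBR, 0 were higher and 3 did not pass (limma, Benjamini-Hochberg adjusted p under 0.05 over the 231 assays tested). Over the whole panel 36.8% of assays passed, 35.5% as lower and 1.30% as higher. At an unadjusted p under 0.05 the same 3 miR-30 assays passed, against 48.9% of the 231. The 6 assays had a median log2 change of -1.19, against -1.13 for all 231. Changes are BTBR minus C57BL/6J and take 1 cycle as a 2-fold difference. The assay hsa-miR-30d had a log2 change of -1.44 ± 0.36 (SE), 2.71-fold lower in BTBR (limma adjusted p = 0.0316), hsa-miR-30e one of -1.38 ± 0.40, 2.59-fold lower (limma adjusted p = 0.0447), and hsa-miR-30a-5p one of -1.01 ± 0.30, 2.01-fold lower (limma adjusted p = 0.0447). Relative to the panel median these 3 changes were -0.31, -0.25 and 0.12. The other assays had log2 changes of -0.46 (standard error 0.39) for hsa-miR-30c, -1.37 (standard error 0.65) for hsa-miR-30d# and 5.81 (standard error 3.91) for hsa-miR-30b, the last on 2 C57BL/6J values.

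Most of these calls were lost when 1 mouse was left out, as were most calls of the panel in 4 of the 6 such fits. With any of 4 mice left out (BTBR replicates 1 and 2, C57BL/6J replicates 2 and 3), 0 miR-30 assays passed (the unadjusted p was under 0.05 for 2 or 3 of them in limma). In those 4 fits 0 of 212, 8 of 213, 3 of 212 and 0 of 221 assays of the panel passed, with 85 to 99 at an unadjusted p under 0.05. The log2 change of hsa-miR-30d there was -1.42, -1.27, -1.46 and -1.22. Without C57BL/6J replicate 1 only hsa-miR-30d passed of the family (limma adjusted p = 0.0497), with 64 of 220 assays of the panel. The call of hsa-miR-30a-5p was also lost when 1 assay of the panel with no spread within strains was left out (limma adjusted p = 0.0561), an alternative chosen after seeing the data. It was lost too, with that of hsa-miR-30e, when 40 was kept as a value (limma adjusted p = 0.0531 and 0.0634), when late readings were kept (0.0593 and 0.0586) and with no filter on detection (0.0609 and 0.0565). Without BTBR replicate 3, hsa-miR-30b passed as higher in BTBR, with a log2 change of 9.63 ± 0.65 (SE, limma adjusted p = 0.00658, on 2 mice per strain), where 47.6% of 212 assays passed and 6.13% were higher. For hsa-miR-30b this leaves out the BTBR mouse that read near C57BL/6J replicates 2 and 3. No strain difference can be drawn from that pass. In that fit hsa-miR-30d and hsa-miR-30e passed as lower, as 41.5% of assays did, and hsa-miR-30a-5p missed the threshold (limma adjusted p = 0.0509).

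The calls also differed between scales. When raw thresholds were centred on each mouse's mean over the 189 assays with 6 normalized values (the global mean), 0 of the 6 miR-30 assays passed, against 0.433% of the 231 assays, and 2 of the 6 had an unadjusted p under 0.05 in limma, against 29.9% of the 231. Here hsa-miR-30c had a log2 change of -1.11 (standard error 0.29, limma adjusted p = 0.0773), followed by hsa-miR-30d (-0.82, standard error 0.29), hsa-miR-30a-5p (-0.74, standard error 0.33) and hsa-miR-30e (-0.61, standard error 0.38). The panel median on this scale was -0.18 and the median of the 6 assays -0.67. The control scale centred each mouse on the mean of its read control spots, 78 to 80 in BTBR mice but 59 to 63 in C57BL/6J mice. The strains were thus not centred on the same number of spots, and the part of this in the changes was not tested. On this scale these 4 assays had log2 changes of -2.07, -1.78, -1.70 and -1.57, where the panel median was -1.09. Of the 6 miR-30 assays 0 passed (0.433% of the 231 did). An unadjusted p under 0.05 in limma was found for hsa-miR-30c, hsa-miR-30d, hsa-miR-30a-5p and, higher in BTBR, hsa-miR-30b (log2 change 6.03), against 37.2% of the 231 assays. The 4 assays were thus negative on the raw, global mean, control and authors' scales, but after centring the authors' values on the median of each sample hsa-miR-30c was at 0.71 and hsa-miR-30a-5p at 0.17. On the global mean scale, 2 of the 5 miR-30 assays with 6 values (hsa-miR-30c and hsa-miR-30d) were later in BTBR without overlap, against 24.3% of the 189 assays. Without BTBR replicate 3 these same 2 assays passed on that scale (limma adjusted p = 0.0323 for hsa-miR-30c and 0.0416 for hsa-miR-30d), where 21.7% of 212 assays passed and 10.4% were lower, an alternative chosen after seeing the data. In the same fit hsa-miR-30b passed as higher in BTBR (log2 change 10.66, limma adjusted p = 0.00211), as 11.3% of assays did. Here too the BTBR mouse that read near C57BL/6J replicates 2 and 3 was left out, so that pass shows no strain difference.

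**Figure D3:**
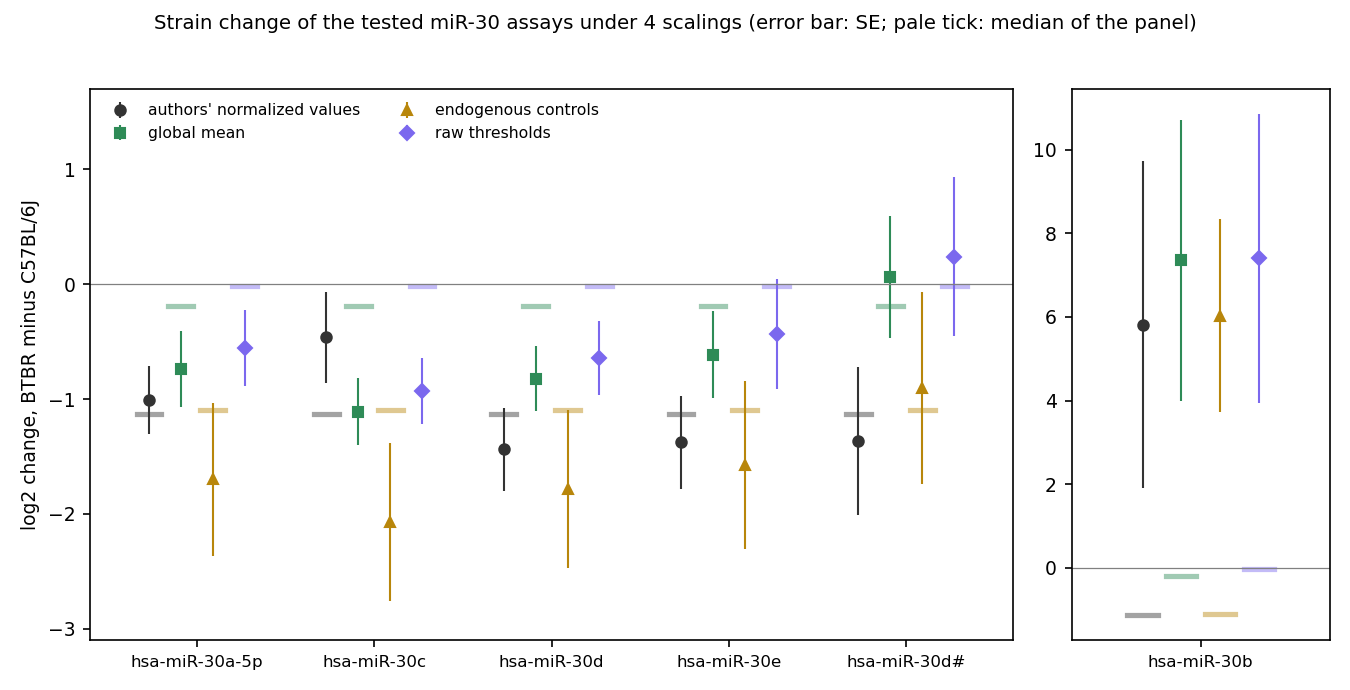
Log2 change, BTBR minus C57BL/6J, of the 6 tested miR-30 assays (points) with its standard error (bars) on the authors' normalized values, the global mean scale, the control scale and the raw thresholds, with the panel's median on each scale as a pale tick. The changes of miR-30a-5p, miR-30c, miR-30d and miR-30e are negative on all 4 scales, miR-30b is positive on a separate axis (5.81 on the authors' values), and hsa-miR-30d# crosses 0.

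In the authors' deposited table of comparisons, which keeps 40 as a value, 0 of the 6 miR-30 assays had an adjusted p under 0.05, against 15.7% of its 306 assays, and 3 had an unadjusted p under 0.05, against 36.6%. That table gives a BTBR to C57BL/6J ratio of 0.369 for hsa-miR-30d (adjusted p = 0.0596), 0.385 for hsa-miR-30e (adjusted p = 0.0975) and 0.498 for hsa-miR-30a-5p (adjusted p = 0.0975). For hsa-miR-30b the authors' deposited table gives a ratio of 1293 (adjusted p = 0.278), which includes the undetermined C57BL/6J reading as 40.

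Differences between paralogs within a mouse leave out any factor common to all pool A assays of that mouse, since all 5p assays belong to pool A. Of the 10 pairs of 5p assays, 5 had a within-sample difference that did not overlap between strains, 4 of them with hsa-miR-30b, against 37.0% of all pairs of pool A assays read in every mouse. Of the 6 pairs without hsa-miR-30b, 1 did not overlap. In that pair, hsa-miR-30c minus hsa-miR-30d was -6.03, -5.65 and -5.80 cycles in BTBR replicates 1, 2 and 3, against -6.10, -6.15 and -6.09 cycles in C57BL/6J replicates 1, 2 and 3. The strain change of that difference was 0.288 cycles (two-sided exact permutation p = 0.1, the smallest that 3 against 3 allows, 0.2 when adjusted over the 10 pairs). On the authors' normalized values its direction turned, to -0.98 cycles (two-sided exact permutation p = 0.1), so no direction can be given.

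The 6 differences among the paralogs other than miR-30b changed between strains by 0.084 to 0.497 cycles in size on raw thresholds. On the authors' normalized values the one farthest from 0 was -0.98 cycles, and 4 of the 6 had the other sign (miR-30a-5p minus miR-30c, miR-30a-5p minus miR-30e, miR-30c minus miR-30d and miR-30c minus miR-30e). For hsa-miR-30a-5p minus hsa-miR-30e, the pair that differs by 1 base, the mean was -2.60 ± 0.316 cycles in BTBR and -2.73 ± 0.67 cycles in C57BL/6J (SD, n = 3 each), a change of 0.125 cycles (two-sided exact permutation p = 0.9). The linked pair hsa-miR-30b minus hsa-miR-30d was -1.04, -2.30 and 8.92 cycles in BTBR replicates 1, 2 and 3, against 17.57, 10.21 and 9.77 cycles in C57BL/6J replicates 1, 2 and 3. BTBR replicate 3 was thus close to C57BL/6J replicates 2 and 3. The means changed between strains by -10.65 cycles (two-sided exact permutation p = 0.1, the smallest possible, adjusted p = 0.2). On the authors' normalized values, which lack C57BL/6J replicate 1 for hsa-miR-30b, the change was -7.45 cycles (two-sided exact permutation p = 0.6). There the strains overlapped in every pair with hsa-miR-30b.

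**Figure D4:**
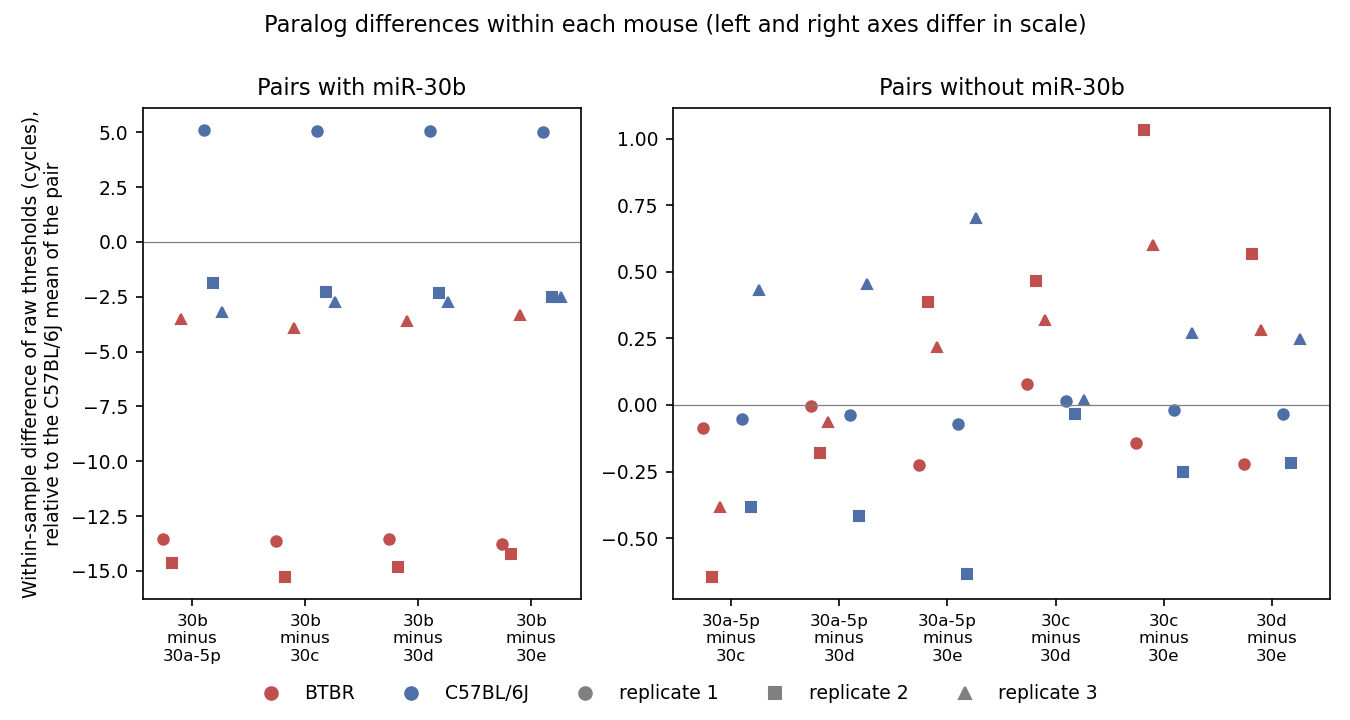
Within-sample differences of raw thresholds (cycles) for the 10 pairs of 5p assays, drawn relative to the C57BL/6J mean of each pair, BTBR left of C57BL/6J, 1 point per mouse. The pairs with miR-30b (left panel) put BTBR replicates 1 and 2 far below the other mice, and the 6 pairs without it (right panel, narrower axis) lie within about 1 cycle, with no overlap between strains only for 30c minus 30d.

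On the 3p strand, hsa-miR-30d# was the only assay read in every mouse. It came at 23.44, 22.30 and 23.04 cycles in BTBR replicates 1, 2 and 3, against 24.16, 23.57 and 21.78 cycles in C57BL/6J replicates 1, 2 and 3, and the strains overlapped. Its log2 change was negative on the authors' values (-1.37, standard error 0.65, limma adjusted p = 0.138) and on the control scale (-0.90) but positive on the global mean scale (0.061) and on raw thresholds (0.24), so no direction can be given. The strand difference of miR-30d, the 3p reading minus the 5p reading, was 4.73 ± 0.526 cycles in BTBR and 5.62 ± 0.973 cycles in C57BL/6J (SD, n = 3 each). It changed by -0.88 cycles (two-sided exact permutation p = 0.3), and the 2 assays are in different pools.

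The 3p strands with the seed UUUCAGU were read late or not at all. The assay hsa-miR-30e-3p was read at 27.83, 26.70 and 34.41 cycles in BTBR replicates 1, 2 and 3, against 32.92 and 33.80 cycles in C57BL/6J replicates 2 and 3 and undetermined in replicate 1. In these raw readings BTBR replicates 1 and 2 were earlier than every C57BL/6J mouse and BTBR replicate 3 was later than both C57BL/6J readings. This is the same split of the BTBR mice as for hsa-miR-30b. Its rank among the 340 assays was 285, 290 and 318 in BTBR mice, against 282 and 272 in C57BL/6J replicates 2 and 3. With late readings kept, its log2 change after the authors' quantile step was -3.96 (standard error 1.87, limma adjusted p = 0.16). The direction thus turned with the scale, and none can be given. The assay hsa-miR-30a-3p was read in BTBR replicates 1 and 2 (31.32 and 29.99 cycles) and in no other mouse. Readings in at least 2 BTBR and no C57BL/6J mice occurred in 11.2% of the 750 assays and in 1 of the 11 miR-30 assays. The reverse occurred in 1.33% of the 750 assays and in 0 of the 11.

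The 3p strands with the seed UGGGAGA were rarely read: hsa-miR-30c-1# was undetermined in all 6 mice, and hsa-miR-30c-2# was read once per strain, at 25.66 cycles in BTBR replicate 1 and 22.68 cycles in C57BL/6J replicate 2. The assay mmu-miR-30b#, the other strand of miR-30b, was read only in BTBR replicate 2 (23.35 cycles). A missing reading gives no level, so no strain difference was drawn from these assays.

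The seed relative outside the family, mmu-miR-384-5p, is a brain-enriched miRNA known in rat hippocampal neurons for a part in long-term potentiation. It was read at 17.96, 16.80 and 19.16 cycles in BTBR replicates 1, 2 and 3, against 19.80, 18.98 and 19.01 cycles in C57BL/6J replicates 1, 2 and 3. BTBR replicates 1 and 2 were the earliest mice, as for hsa-miR-30b, and BTBR replicate 3 lay among the C57BL/6J mice. Its log2 change was 0.62 on the authors' values (standard error 0.66, limma adjusted p = 0.468) and 1.11 on the global mean scale (standard error 0.54, limma adjusted p = 0.206). Without BTBR replicate 3 it passed on the global mean scale (log2 change 1.66, limma adjusted p = 0.0323), where 11.3% of 212 assays were higher. That alternative was chosen after seeing the data, and it leaves out the BTBR mouse that lay among the C57BL/6J mice. With any other mouse left out it did not pass on that scale (limma adjusted p = 0.265 to 0.456). On the authors' values it did not pass without BTBR replicate 3 either (limma adjusted p = 0.0993). The assay of the other strand, mmu-miR-384-3p, was read at 25.21, 23.79 and 30.40 cycles in BTBR mice, against 32.86 and 30.35 cycles in C57BL/6J replicates 2 and 3 and undetermined in replicate 1. Of the 231 other assays ranked, mmu-miR-384-5p was the most like the mean of the 5 assays of the 5p strand, with a root mean square difference of 0.386 cycles over the 6 mice, on global-mean-centred thresholds with each assay's own mean taken off. That mean follows miR-30b, the member with the widest range. Next came hsa-miR-411# (0.407 cycles), hsa-miR-365 (0.456 cycles), mmu-miR-93 (0.474 cycles) and hsa-miR-574-3p (0.499 cycles).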

How the data were processed

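Prefrontal cortex RNA of 3 BTBR and 3 C57BL/6J mice was column-purified (integrity number 9), and 100 ng per sample was reverse transcribed, pre-amplified and run on the OpenArray panel, per the labels' protocols. The sources used here do not say which mice were run on a common array. Replicates were separate mice. The deposited raw table holds cycle thresholds, a scale of minus log2 amount, for 750 assays (377 of pool A, 373 of pool B). The authors' normalized table holds quantile-normalized thresholds (log2 scale) of 306 assays, per the file headers. Its values were rebuilt by setting raw readings under 10 to 40, ranking the 340 assays read in at least 3 of 6 samples with 40 as a value, and setting values above 29.19 to 40, with a largest difference of 3.33e-09 cycles. The authors' deposited comparison table gives a ratio, a test score, a p-value and an adjusted p-value.

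Normalized thresholds were multiplied by -1, 40 was treated as missing, and a limma 3.58.1 model of strain alone (R 4.3.3) was fitted to assays with at least 2 values per strain, with p-values adjusted by Benjamini-Hochberg over all of them. Within-sample differences were compared with two-sided exact permutation tests (SciPy 1.17.1). A threshold has no counting depth, so 1 PCR per assay and 3 mice per strain limit the precision. Alternatives were other scalings, other treatments of 40, other detection filters, each replicate left out and the replicate number as a block. All family assays were named, with seed relatives and the 5 assays most like the 5p mean. The members, lists and tests were chosen with earlier results of these data known.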

Additional observations from a re-analysis of the deposited data

Results flagged for a closer look

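For 3 assays of the 3p strand left out of the normalized table, at least 1 BTBR mouse gave a raw reading where the C57BL/6J mice gave none or gave later ones. The rule looked for early BTBR readings only, and the share of the panel that meets it was not counted. Also left out of that table, hsa-miR-30c-2# went the other way, at 22.68 cycles in C57BL/6J replicate 2 against 25.66 cycles in BTBR replicate 1. The earliest BTBR reading was 29.99 cycles for hsa-miR-30a-3p and 23.35 cycles for mmu-miR-30b#, both undetermined in all C57BL/6J mice. For hsa-miR-30e-3p it was 26.70 cycles, against 32.92 cycles for the earliest C57BL/6J reading, but BTBR replicate 3 was later (34.41 cycles) than both C57BL/6J readings. By rank within the mouse, no BTBR reading of hsa-miR-30e-3p came before a C57BL/6J one. A missing reading gives no level. All 3 readings came from BTBR replicate 2, which had the most detected assays of the 6 mice (409 of 750), and the part of that number in these readings was not tested.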

How the results depend on the processing

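The count of assays past the threshold was 85 on the authors' values. It was 1 on the global mean scale, on the global mean within each pool and on the control scale, 0 on raw thresholds, 2 after centring the authors' values on the median of each sample, and 0 to 101 when each mouse was left out. For the miR-30 family the count of 3 became 0 under each of those 5 scalings, 1 with 40 kept as a value, with late readings kept or with no filter on detection (96 of 306, 86 of 270 and 75 of 270 in the panel), and 0 to 3 when each mouse was left out. It stayed at 3, of 5 tested, when only assays detected in all 6 samples were used (82 of 189 in the panel). On the global mean scale, each mouse left out gave 0 to 46 assays and 0 to 3 of the family. Whether mice of the same replicate number were handled together is not stated. The correlations of same-numbered deviations over 189 assays were 0.076, 0.421 and -0.067, against -0.468 to 0.31 for other numbers. The deviations of a strain's 3 mice sum to 0, so these values depend on each other and cannot decide it. With the replicate block 49 assays and 2 of the family passed, and on the global mean scale with the block 0 and 0. The sign of miR-30a-5p (0.17) and miR-30c (0.71) turned with sample medians. That of hsa-miR-30d# turned on the global mean scale (0.061, also 0.061 with the block), within pools (0.086) and on raw thresholds (0.24), and spanned -0.30 to 0.62 there with each mouse left out (0.21 without BTBR replicate 1, 0.077 without BTBR replicate 3 and 0.62 without C57BL/6J replicate 3). The cause was not tested. On the authors' values 2 of the 10 paralog pairs did not overlap between strains, against 5 on raw thresholds and 5 to 8 with each mouse left out (8 without BTBR replicate 1). Those 2 were miR-30c minus miR-30d and miR-30c minus miR-30e, and no pair with hsa-miR-30b was among them. The strand difference of miR-30d changed by -0.071 cycles on the authors' values and by -1.42 to -0.48 with each mouse left out. No value was obtained for hsa-miR-30b without C57BL/6J replicate 2 or 3, which leave 1 reading in that strain.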

Other observations

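With hsa-miR-30b left out of the mean, a choice made after seeing the data, the other 4 assays of the 5p strand had their closest likeness elsewhere in the panel. The nearest was hsa-miR-301, a miRNA of the miR-130 seed family, with a root mean square difference of 0.088 cycles over the 6 mice, followed by hsa-miR-15b (0.15 cycles), hsa-miR-410 (0.156 cycles), hsa-miR-19b (0.159 cycles) and mmu-miR-350 (0.179 cycles). The assay hsa-miR-301 was read at 23.25, 22.67 and 22.42 cycles in BTBR replicates 1, 2 and 3, against 22.41, 22.42 and 21.82 cycles in C57BL/6J replicates 1, 2 and 3. The centred mean of the 4 assays was 0.70, 0.58 and -0.04 cycles in BTBR replicates 1, 2 and 3, against -0.50, -0.35 and -0.39 cycles in C57BL/6J replicates 1, 2 and 3. These are descriptions of 6 mice with no test.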
